A study of Homo sapiens with 13 samples.

Results

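The genes described here are 9 core genes of the PI3K, AKT and mTOR growth signalling pathway: PIK3CA, AKT1, AKT2, TSC1, TSC2, RHEB, MTOR, RPTOR and RICTOR. They were chosen by name, as components of the pathway, and all 9 were found with 1 entry each among 24875 gene symbols of a Silvestrol experiment and among 13121 symbols of an INK128 experiment. In this pathway growth factor receptors switch on PI3K, a lipid kinase whose catalytic subunit p110α is encoded by PIK3CA, and its lipid product brings the kinases AKT1 and AKT2 to the membrane. AKT inhibits the TSC1-TSC2 complex, which otherwise keeps the small GTPase RHEB inactive, and active RHEB turns on the kinase mTOR when it is bound to RPTOR (also called Raptor) in the complex mTORC1. The same kinase bound to RICTOR forms mTORC2, which phosphorylates AKT. The pathway is a major control of protein synthesis, since mTORC1 phosphorylates the 4E-BPs that hold back the cap-binding factor eIF4E, the partner of the RNA helicase eIF4A.

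All samples were MDA-MB-231 cells, an established human line of triple-negative ductal breast carcinoma, with no genetic change between groups. Silvestrol, an inhibitor of eIF4A, was given at 25 nM for 1 h or 2 h, and INK128, an inhibitor of the mTOR kinase, at 200 nM for 2 h, each beside cells given the solvent DMSO for the same time. The Silvestrol experiment comprised ribosome footprint (RF) libraries from untreated cells (1), DMSO at 1 h (1), Silvestrol at 1 h (1), DMSO at 2 h (2, from cells at passages 3 and 4) and Silvestrol at 2 h (2, from the same passages), and mRNA libraries at 2 h from passage 3 (1 per treatment). The INK128 experiment had 1 RF library and 1 total RNA library per treatment, all from passage 3, so its values have no replicate check. The comparisons ask which mRNAs lose or gain ribosomes when eIF4A or mTOR is inhibited.

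Counted reads (M, mega) ranged from 2.65 M to 31.19 M in the RF libraries and from 24.79 M to 50.32 M in the mRNA libraries of the Silvestrol experiment, lowest in passage 4. The INK128 table gives no counts, so its depth is unknown. The labels of 2 libraries contradict their own titles, in the treatment time of 1 of the Silvestrol RF libraries titled 2 h (passage 3, given elsewhere as 1 h) and in the treatment of the control mRNA library (titled DMSO, given elsewhere as untreated), and the titles were followed. Every translational efficiency of the Silvestrol experiment below rests on that mRNA library, and which of its labels is right was not tested. Of the markers of the line, the mesenchymal genes VIM (4790 to 7030 RPKM), CD44 (138 to 344) and AXL (85.7 to 162) were high in the 7 RF libraries, and the estrogen receptor gene ESR1 was at 0 in all of them. PGR and CDH1 stayed at or below 0.108 RPKM and ERBB2 at or below 4.05, while SPARC, another mesenchymal gene, was low at 0.676 to 2.24.

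In control cells the RF values of the 9 genes, in RPKM (reads scaled to gene length and library size), spanned about an order of magnitude. The 2 AKT genes were highest, with 50.2 ± 2.6 for AKT2 and 48.8 ± 4.6 for AKT1 (mean ± SD over the untreated and the 3 DMSO libraries, n = 4, here and below). RICTOR followed with 22.3 ± 1.6, then RPTOR with 18.8 ± 1.0, TSC2 with 16.3 ± 0.5 and MTOR with 14.4 ± 1.7. PIK3CA had 12.5 ± 1.1, TSC1 had 8.96 ± 0.64 and RHEB 6.18 ± 6.8. The ranges of AKT1 and AKT2 overlapped, as did those of TSC2 and MTOR and of MTOR and PIK3CA, and the range of RHEB, from 1.13 to 16.1, covered those of TSC1, PIK3CA and MTOR. The other neighbours in this order did not overlap.

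The RHEB value rests on 5 to 23 reads per control library, and at 2 h it was counted over 22.8% and 31.0% of its coding length with DMSO and 28.3% and 49.6% with Silvestrol, so no direction is read from its RFs here. The other 8 genes were counted over 89.1% to 100.4% of their coding length and had 259 to 4854 RF reads in each control library. AKT1 was far higher in mRNA than in RFs, at 133 RPKM of mRNA, the 94.8th percentile of the 10586 genes used, against 51.3 RPKM of RFs in the same passage. RICTOR stood the other way, with 5.70 RPKM of mRNA and 20.4 RPKM of RFs. The ratio of RF to mRNA RPKM, the translational efficiency (TE), was accordingly 3.58 for RICTOR (77th percentile) and 2.18 for PIK3CA (57.6th), against 0.385 for AKT1 (8.6th). TE was 1.46 for TSC1, 1.45 for MTOR, 1.30 for RPTOR, 1.00 for AKT2, 0.955 for TSC2 and 0.0968 for RHEB, each from 1 RF and 1 mRNA library. With DMSO at 2 h in passage 3, the ratio of AKT1 to AKT2 was 1.01 in RFs and 2.64 in mRNA. In the DMSO libraries of the INK128 experiment it was 2.62 in RFs and 2.38 in total RNA. The low TE of AKT1 relative to AKT2 was thus not seen in that experiment.

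**Figure D1:**
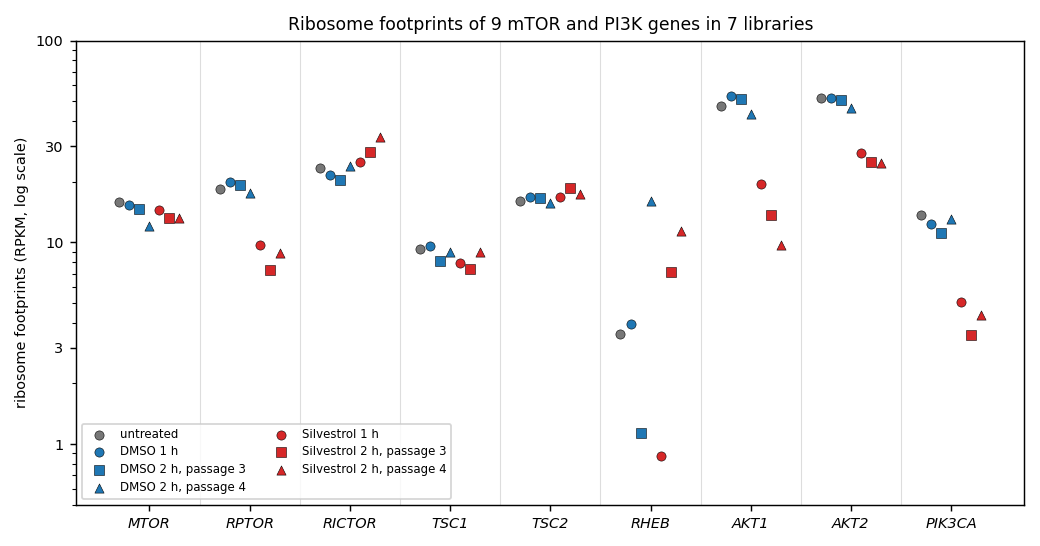
RF values (RPKM, log scale) of the 9 genes in each of the 7 RF libraries, grey for untreated, blue for DMSO and red for Silvestrol, with circles, squares and triangles for the untreated or 1 h libraries, 2 h in passage 3 and 2 h in passage 4. The red points of RPTOR, AKT1, AKT2 and PIK3CA lie below all their blue and grey points, and those of RICTOR lie above, from 24.9 to 33.5 RPKM against 20.4 to 23.9.

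The 5′ ends of the mRNAs are shown because the mRNAs known to depend most on mTOR begin with a terminal oligopyrimidine (TOP) motif, a C at the cap followed by an unbroken run of pyrimidines. The first 20 bases of each gene's main GENCODE transcript are given 5′ to 3′ as DNA, with the longest run of C and T in capitals, and their positions are those of the whole transcript in GRCh37.
PIK3CA (chr3:178866145-178957881, plus strand): agTTCCggtgccgccgctgc
AKT1 (chr14:105235686-105262085, minus strand): ggcggcggcaggaCCgagcg
AKT2 (chr19:40736224-40791252, minus strand): gCCgtgctagccgttgggcc
TSC1 (chr9:135766736-135820003, minus strand): gtacgTCCaagatggcggcg
TSC2 (chr16:2097986-2139492, plus strand): gCTTCCggcggcgtcccggg
RHEB (chr7:151163098-151216981, minus strand): gggagggTCatgacgcagcg
MTOR (chr1:11166592-11322608, minus strand): gCTCCCggcttagaggacag
RPTOR (chr17:78518638-78940168, plus strand): gTCCTggcaatatggcgtcc
RICTOR (chr5:38938022-39074501, minus strand): gttgtgactgaaaCCCgtca
None of the 9 annotated transcripts began with C and 4 more pyrimidines, a start held by 5.48% of the 9064 genes with a 5′ UTR. In MTOR and TSC2 a run of 5 pyrimidines began at the base after the annotated first base. The start sites are the annotation's, and those used in these cells were not measured.

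The 5′ UTRs of the 9 mRNAs differed widely in length. That of RPTOR had 792 nucleotides and that of AKT1 had 522, at the 98.4th and 94.3rd percentiles of all genes, whose median was 136. The minimum free energies of folding (RNAfold) were −309.7 kcal/mol for RPTOR and −301.9 for AKT1, against a median of −52.8. Per nucleotide, which takes the length out, RPTOR was near the median gene (−0.391 against −0.378, 45.9th percentile), and AKT1 was at −0.578 (4.3rd percentile). RHEB followed with 384 nucleotides (−201.6 kcal/mol), PIK3CA with 323 (−169.8), AKT2 with 249 (−121.5) and TSC1 with 217 (−67.9). MTOR had 121 nucleotides (−55.4) and TSC2 had 110 (−58.9), both near the median gene. RICTOR was at the other end, with a 5′ UTR of only 22 nucleotides (5.3rd percentile) and −2.9 kcal/mol. The motif (CGG)4, 4 uninterrupted repeats of CGG searched on the sense strand only, was in 4.83% of all 5′ UTRs and in none of the 9.

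Silvestrol lowered the RFs of PIK3CA, AKT1, AKT2 and RPTOR and left those of TSC1 and MTOR near the median gene, while RICTOR RFs were higher in all 3 Silvestrol libraries. With edgeR's quasi-likelihood test on the RF counts of the 4 libraries at 2 h, 4 of the 9 genes passed an adjusted p of 0.05 as lower and 0 as higher. Of the 10586 genes tested, 7.86% passed as lower and 2.39% as higher. When the passage was added as a block, 4 of the 9 passed in edgeR as lower and 3 as higher (RICTOR, TSC2 and RHEB), where 28.0% and 24.7% of all genes did, in a fit with 1 residual degree of freedom. DESeq2 called the same 4 lower and RICTOR higher, beside 9.47% and 5.61% of all genes, and a blocked edgeR fit over all 7 RF libraries called 4 lower and 2 higher (RICTOR and TSC2), beside 27.8% and 23.3%. Without either Silvestrol library at 2 h, edgeR called 0 of the 9 and 0 of all genes, with 1634 and 1953 genes at an unadjusted p under 0.05. RPKM values carry the scaling of their own library, and the median gene stood at 88.7% of its DMSO value in passage 3, 90.1% in passage 4 and 88.1% at 1 h. The edgeR changes below are on a scale where the median gene is at −0.02 (log2).

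PIK3CA, the catalytic subunit of PI3K, kept 31.4% and 33.4% of its DMSO RFs at 2 h in passages 3 and 4. It had 13.6 RPKM in untreated cells, 12.3 with DMSO at 1 h and 11.1 and 13.1 with DMSO at 2 h in passages 3 and 4, against 5.04 with Silvestrol at 1 h and 3.48 and 4.37 at 2 h. The groups did not overlap. The edgeR log2 change at 2 h was −1.49 ± 0.19 (SE, adjusted p = 0.019, 2 libraries per treatment). Its mRNA did not fall with it, at 5.10 RPKM with DMSO and 5.31 with Silvestrol, or 104.2%. TE went from 2.18 to 0.656, a z-score of −1.43 among all genes in passage 3 and of −1.40 in passage 4, the lowest of the 9 genes and just inside the threshold of −1.5. In the edgeR test of TE, in which the single mRNA library of each treatment has no spread of its own and the RF libraries supply it, here and for the other genes, the log2 change was −1.45 ± 0.33 (adjusted p = 0.098), and with the passage as a block −1.43 ± 0.24 (adjusted p = 0.00097).

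AKT1, a kinase that promotes growth and survival, lost the largest share of its RFs among the 9 genes at 2 h. Its RFs were 47.4 RPKM in untreated cells, 53.5 with DMSO at 1 h and 51.3 and 43.2 at 2 h, against 19.5 with Silvestrol at 1 h and 13.7 and 9.74 at 2 h in passages 3 and 4. All 3 Silvestrol libraries lay far below all 4 controls. The last value stands on 48 reads. The edgeR log2 change at 2 h was −1.78 ± 0.25 (adjusted p = 0.022). AKT1 mRNA was also lower, at 133 RPKM with DMSO and 86.3 with Silvestrol (64.8%), so the TE z-score was −0.97 in passage 3 and −1.28 in passage 4. The edgeR change in TE was −1.04 ± 0.39 (adjusted p = 0.19), or adjusted p = 0.0022 with the passage as a block.

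AKT2, the AKT kinase known for its part in insulin-driven glucose uptake, fell less. It had 51.8 RPKM in untreated cells, 51.8 with DMSO at 1 h and 50.6 and 46.4 at 2 h, against 27.9 with Silvestrol at 1 h and 24.9 and 24.7 at 2 h. The groups did not overlap, and the edgeR log2 change at 2 h was −0.77 ± 0.16 (adjusted p = 0.047). Without the passage 3 DMSO library the adjusted p of edgeR was 0.076. AKT2 mRNA was 50.5 RPKM with DMSO and 35.8 with Silvestrol (70.8%), and its TE z-score was −0.21 in passage 3 and −0.12 in passage 4.

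The ratio of AKT1 to AKT2 RFs within a library, which does not depend on library scaling, was 0.914 in untreated cells, 1.03 with DMSO at 1 h and 1.01 and 0.931 at 2 h. With Silvestrol it was 0.697 at 1 h and 0.551 and 0.394 at 2 h, so all 3 Silvestrol libraries lay below all 4 controls. In mRNA the ratio was 2.64 with DMSO and 2.41 with Silvestrol. The difference between the 2 genes was not tested.

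The TSC complex, which restrains mTORC1 through RHEB, showed no loss of RFs. TSC1 had 9.27, 9.56, 8.09 and 8.92 RPKM in the untreated, DMSO 1 h and both DMSO 2 h libraries, and 7.94, 7.41 and 8.96 with Silvestrol at 1 h and at 2 h in passages 3 and 4. The groups overlapped, and the edgeR log2 change was 0.06 ± 0.17 (adjusted p = 0.84). TSC2, the subunit that acts on RHEB, had 16, 16.7, 16.6 and 15.7 RPKM in the same controls and 16.8, 18.6 and 17.3 with Silvestrol, just above them. The edgeR log2 change of TSC2 was 0.28 ± 0.15 (adjusted p = 0.28), and it passed the test only with the passage as a block (adjusted p = 0.028). TSC2 mRNA was lower, at 17.4 RPKM with DMSO and 12.9 with Silvestrol (74.0%), and its TE z-score was 0.91 in both passages. The edgeR change in TE was 0.84 ± 0.28 (adjusted p = 0.16, and 0.0034 with the passage as a block).

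RHEB, the GTPase that activates mTORC1, was read 15, 18, 5 and 23 times in the 4 control libraries and 3, 19 and 11 times with Silvestrol. Its log2 change was 0.76 ± 1.4 in edgeR (adjusted p = 0.74). The passage 3 DMSO library, with 5 reads, decides its TE z-score, which was 2.71 in passage 3 and −0.49 in passage 4. RHEB mRNA, with 721 and 462 reads, was 11.7 RPKM with DMSO and 14.1 with Silvestrol.

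MTOR, the kinase of both complexes, held its RFs. It had 15.8, 15.3, 14.6 and 12 RPKM in the 4 controls and 14.4, 13.2 and 13.2 with Silvestrol, inside the range of the controls. Its edgeR log2 change was 0.11 ± 0.17 (adjusted p = 0.69), on 357 to 4854 reads per library. MTOR mRNA was 10.1 RPKM with DMSO and 10.0 with Silvestrol.

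RPTOR and RICTOR, the subunits that define the 2 mTOR complexes, moved apart. RPTOR had 18.5, 19.9, 19.3 and 17.6 RPKM in the 4 controls and 9.67, 7.29 and 8.87 with Silvestrol, with no overlap. Its edgeR log2 change was −1.08 ± 0.18 (adjusted p = 0.03), and its mRNA was 14.9 RPKM with DMSO and 13.6 with Silvestrol (91.6%). The TE z-score of RPTOR was −0.97 in passage 3 and −0.59 in passage 4, and the edgeR change in TE was −0.84 ± 0.27 (adjusted p = 0.15, and 0.0056 with the passage as a block).

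RICTOR had 23.4, 21.5, 20.4 and 23.9 RPKM in the 4 controls and 24.9, 28.2 and 33.5 with Silvestrol at 1 h and at 2 h in passages 3 and 4. The groups did not overlap, but the 1 h library was close to the highest control. The edgeR log2 change at 2 h was 0.60 ± 0.14, which missed the threshold (adjusted p = 0.053) and passed it with the passage as a block (adjusted p = 4.6e-08). RICTOR mRNA was 5.70 RPKM with DMSO and 7.04 with Silvestrol (123.5%), and the TE z-score was 0.48 in passage 3 and 0.50 in passage 4. Within libraries the ratio of RICTOR to RPTOR RFs was 1.26, 1.08, 1.06 and 1.36 in the 4 controls and 2.57, 3.87 and 3.78 with Silvestrol, while in mRNA it was 0.383 and 0.516.

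Over all genes, the 3 Silvestrol RF libraries lay below the 4 controls in 32.7% and above them in 10.2%. Of the 9 genes, 4 lay below (PIK3CA, AKT1, AKT2 and RPTOR), 2 above (RICTOR and TSC2), and 3 overlapped.

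**Figure D2:**
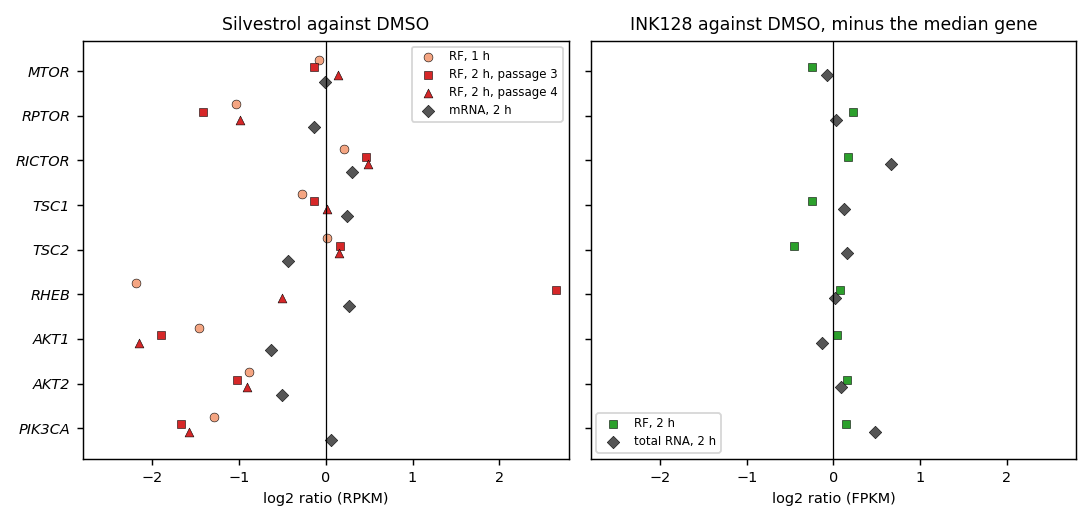
Left, log2 ratio of Silvestrol to DMSO RPKM for RFs at 1 h, RFs at 2 h in both passages and mRNA at 2 h. Right, log2 ratio of INK128 to DMSO FPKM for RFs and total RNA, minus the median of all genes, with no replicates. With Silvestrol the RF points of RPTOR, AKT1, AKT2 and PIK3CA lie between −0.89 and −2.15, left of their mRNA point, and with INK128 all RF points lie between −0.46 and 0.22.

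At 1 h the same 4 genes were already low, each with 1 library per treatment. RFs were 36.4% of DMSO for AKT1, 40.8% for PIK3CA, 48.6% for RPTOR and 54.0% for AKT2, against 26.8%, 31.4%, 37.7% and 49.2% at 2 h in passage 3. RICTOR was at 115.9% at 1 h and at 138.0% at 2 h. With edgeR, in a fit where the 1 h libraries are assumed to vary like those at 2 h, 0 of 9 genes and 0.0% of all genes passed at 1 h, while 953 genes and 4 of the 9 (RPTOR, AKT1, AKT2 and PIK3CA) had an unadjusted p under 0.05. With the block edgeR called those 4 lower and RICTOR higher, beside 14.3% and 9.81% of all genes, but that fit has 1 residual degree of freedom and takes its spread from the 2 h libraries, so its calls are no replicate check of the 1 h values. The difference between the 2 h and 1 h effects of Silvestrol was −0.49 ± 0.41 (log2) for AKT1 and −0.36 ± 0.33 for PIK3CA, and it passed for none of the 9 genes in edgeR (adjusted p = 1.0 for each, and 0.12 or more with the block, where 1.06% of all genes were called lower and 0.907% higher). At an unadjusted p under 0.05 edgeR had 0 of the 9 and 92 genes of all.

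For mRNA at 2 h, 1 of the 9 genes was lower by more than 1.5-fold (AKT1) and 0 were higher, beside 11.8% and 18.3% of all genes. For TE, 0 of the 9 genes passed in edgeR, where 0.0189% of all genes passed as lower and 0.0% as higher, and DESeq2 also called 0 of the 9 (516 of all genes as lower and 372 as higher). RPTOR, TSC2, AKT1 and PIK3CA had an unadjusted p under 0.05 in edgeR, as did 2589 genes of all. With the passage as a block 3 of the 9 were called lower (PIK3CA, AKT1 and RPTOR) and 1 higher (TSC2), beside 21.9% of all genes in each direction. By z-score 0 of the 9 were below −1.5 in passage 3, as were 6.49% of all genes, and 1 was above 1.5 (RHEB, on its 5 DMSO reads), as were 4.66%. In passage 4 0 of the 9 were past either threshold, beside 6.73% below −1.5 and 4.71% above 1.5.

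With INK128 the RFs of the 9 genes were between 74.0% (TSC2) and 118.6% (RPTOR) of their DMSO values, and the change of TSC2 was at the 6.1th percentile of all genes. The values are FPKM, a unit of the same kind as RPKM, from 1 library per arm, so no difference was tested. The PI3K and AKT genes were slightly higher in RFs, at 6.43 with DMSO and 7.17 with INK128 for PIK3CA, 19.3 and 20.2 for AKT1, and 7.37 and 8.35 for AKT2. RPTOR went from 5.55 to 6.58 and RICTOR from 4.70 to 5.38. The 2 TSC genes and MTOR were lower, at 9.92 and 7.34 for TSC2, 2.07 and 1.77 for TSC1, and 4.74 and 4.06 for MTOR. RHEB had 117 and 125 FPKM, far above its RPKM in the Silvestrol table.

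In log2 terms the RF changes with INK128 ran from −0.43 for TSC2 to 0.25 for RPTOR, beside a median of 0.01 over the genes with adequate values. None of the 9 passed 1.5-fold in RFs, whereas 3.71% of the 13121 genes did so as lower and 4.71% as higher (3.48% and 3.96% of the 7102 genes with adequate values). Total RNA FPKM was 0.223 to 3.77 with DMSO and 0.108 to 1.53 with INK128 for the 9 genes. The median gene was lower by 1.17 on the log2 scale in total RNA, where 92.0% of genes, and all 6 of the 9 genes that passed the minimum, were lower by more than 1.5-fold. Relative to that median 0 of the 6 passed as lower or higher, beside 2.42% and 7.97% of all genes. Without the minimum 0 of the 9 passed as lower and 1 as higher relative to the median, beside 6.33% and 10.7% of all genes. That gene was RICTOR, with 0.264 FPKM of total RNA with DMSO and 0.186 with INK128, or 0.66 above the median on the log2 scale. TE z-scores with INK128 were −1.06 for TSC2, −0.20 for MTOR, 0.23 for RHEB, 0.26 for AKT2, 0.48 for AKT1 and 0.52 for RPTOR. RICTOR, TSC1 and PIK3CA fell under the total RNA minimum, and without it their z-scores were −0.75, −0.55 and −0.50. Hence 0 of the 6 genes were past a threshold, beside 5.58% of all genes below −1.5 and 1.75% above 1.5, and without the minimum 0 of the 9 were, beside 5.61% and 3.72%. With median and MAD in place of mean and SD, TSC2 was past the threshold at −2.08, as were 870 of the 7102 genes, against 396 with mean and SD.

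Within the INK128 experiment the ratio of AKT1 to AKT2 RFs was 2.62 with DMSO and 2.42 with INK128, and that of RICTOR to RPTOR was 0.847 and 0.818. In total RNA the ratio of AKT1 to AKT2 was 2.38 with DMSO and 2.04 with INK128, and that of RICTOR to RPTOR was 0.294 and 0.457. Both RF ratios were thus slightly lower with INK128, while in total RNA the ratio of RICTOR to RPTOR was higher. Each ratio is from 1 library per arm, and the doses, tables and units differ from those of the Silvestrol experiment.

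The rest of the pathway was taken from a list of 52 other genes, of which 50 were in the Silvestrol table and 47 passed its minimum values. In edgeR 9 of the 47 passed as lower in RFs at 2 h and 0 as higher, and with the passage as a block 22 passed as lower and 2 as higher, read against the shares of all genes above. The median log2 change of the 47 was −0.30, against −0.02 for all genes.

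Of the 3 receptor adaptors 2 passed as lower and 3 did so with the block. IRS1, the adaptor that couples the insulin and IGF1 receptors to PI3K, had 29.9 and 23.0 RPKM with DMSO at 2 h and 9.80 and 10.8 with Silvestrol (log2 change −1.25 ± 0.20, edgeR adjusted p = 0.03). GRB10, an adaptor that dampens the same receptors and is itself stabilised by mTORC1, had 37 and 33.6 against 10.4 and 10.6 (−1.63, edgeR adjusted p = 0.017). IRS2 passed with the block only, and its RFs in the DMSO libraries differed between passages, at 23.5 and 13.8 RPKM. The 5 PI3K subunits other than PIK3CA that met the minimum values all had a log2 change below 0. Of these, 2 passed in edgeR and 5 with the block. PIK3CB, the catalytic subunit p110β, had 11.5 and 12.5 RPKM with DMSO and 4.32 and 6.21 with Silvestrol (−1.09, edgeR adjusted p = 0.037), and the regulatory subunit PIK3R2 had 16.8 and 16.9 against 8.68 and 6.80 (−0.97, edgeR adjusted p = 0.049). The regulatory subunit PIK3R1 had 5.97 and 6.12 against 2.41 and 3.29, which missed the threshold (edgeR adjusted p = 0.071). PIK3R1 mRNA was higher, at 1.37 RPKM with DMSO and 3.16 with Silvestrol, and its TE z-score of −2.22 was the lowest of the list.

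Of the 6 phosphatases that oppose PI3K or AKT 1 passed as lower and 3 did so with the block. INPP4B, a lipid phosphatase, had 30.6 and 37 RPKM with DMSO and 13.1 and 18.6 with Silvestrol (−0.99, edgeR adjusted p = 0.042), and INPP4A passed with the block only (10.8 and 9.04 against 4.07 and 5.63). PDPK1, the kinase PDK1 that phosphorylates AKT at the membrane, had its passage 3 and passage 4 RF reads under separate entries of the table and was not fitted.

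Of the other mTOR complex subunits, MAPKAP1 (also called SIN1), a subunit of mTORC2, fell most, from 49.1 and 45.6 RPKM with DMSO to 10.6 and 9.90 with Silvestrol (−2.07 ± 0.19, edgeR adjusted p = 0.015). MLST8, shared by both complexes, had 48.8 and 44.8 RPKM with DMSO and 56.6 and 57.9 with Silvestrol and was called higher only with the block (edgeR adjusted p = 0.17, and 0.0054 with the block).

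Among the sensors that act on mTORC1, STK11 (LKB1), the kinase that activates AMPK, had 13.7 and 11.3 RPKM with DMSO and 2.19 and 3.33 with Silvestrol (−2.14 ± 0.31, edgeR adjusted p = 0.024), the latter on 48 and 15 reads. WDR24 of the GATOR2 complex, which relays amino acid supply, had 6.05 and 4.94 against 1.51 and 1.32 (−1.80, edgeR adjusted p = 0.031), on 11 reads in the last library. FLCN, which acts on the Rag GTPases, had 34.1 and 31.3 against 15.1 and 16.5 (−0.93, edgeR adjusted p = 0.036). The AMPK subunit PRKAA1 and the Rag GTPase RRAGA were called lower with the block only, at −0.52 and −0.58. Of the 9 Rag and Ragulator genes 0 passed and 3 were called lower with the block, and of the 8 GATOR genes 1 passed.

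By TE z-score in passage 3, 9 of the 47 genes were below −1.5 and 0 above 1.5, beside 6.49% and 4.66% of all genes. They were PIK3R1 (−2.22), STK11 (−2.14), IRS1 (−1.70), MAPKAP1 (−1.63), PIK3R3 (−1.62), GRB10 (−1.59), LAMTOR3 (−1.57), WDR24 (−1.54) and IRS2 (−1.51). With the RFs of passage 4, PIK3R3 (−2.2), PIK3R1 (−1.88), LAMTOR3 (−1.85) and MAPKAP1 (−1.69) were again below −1.5, and WDR24 was at −1.5. GRB10 (−1.48), STK11 (−1.32), IRS1 (−1.24) and IRS2 (−0.53) did not pass there. With INK128 DDIT4 (REDD1), a stress-induced inhibitor of mTORC1, was the only one of 28 genes with adequate values past a threshold, at −1.95, where 5.58% of all genes were below −1.5 and 1.75% above 1.5. Its RFs were 22.4 FPKM with DMSO and 7.92 with INK128, and its total RNA 1.24 and 0.404. With Silvestrol DDIT4 had 388 and 338 RPKM with DMSO and 483 and 380 with the drug, and it was called higher only with the block (0.37, edgeR adjusted p = 0.00027, and 0.26 without the block). Without the minimum PIK3R3 (−2.26) and RRAGB (1.61) were past a threshold with INK128, both on low total RNA, as were 5.61% and 3.72% of all genes.

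**Figure D3:**
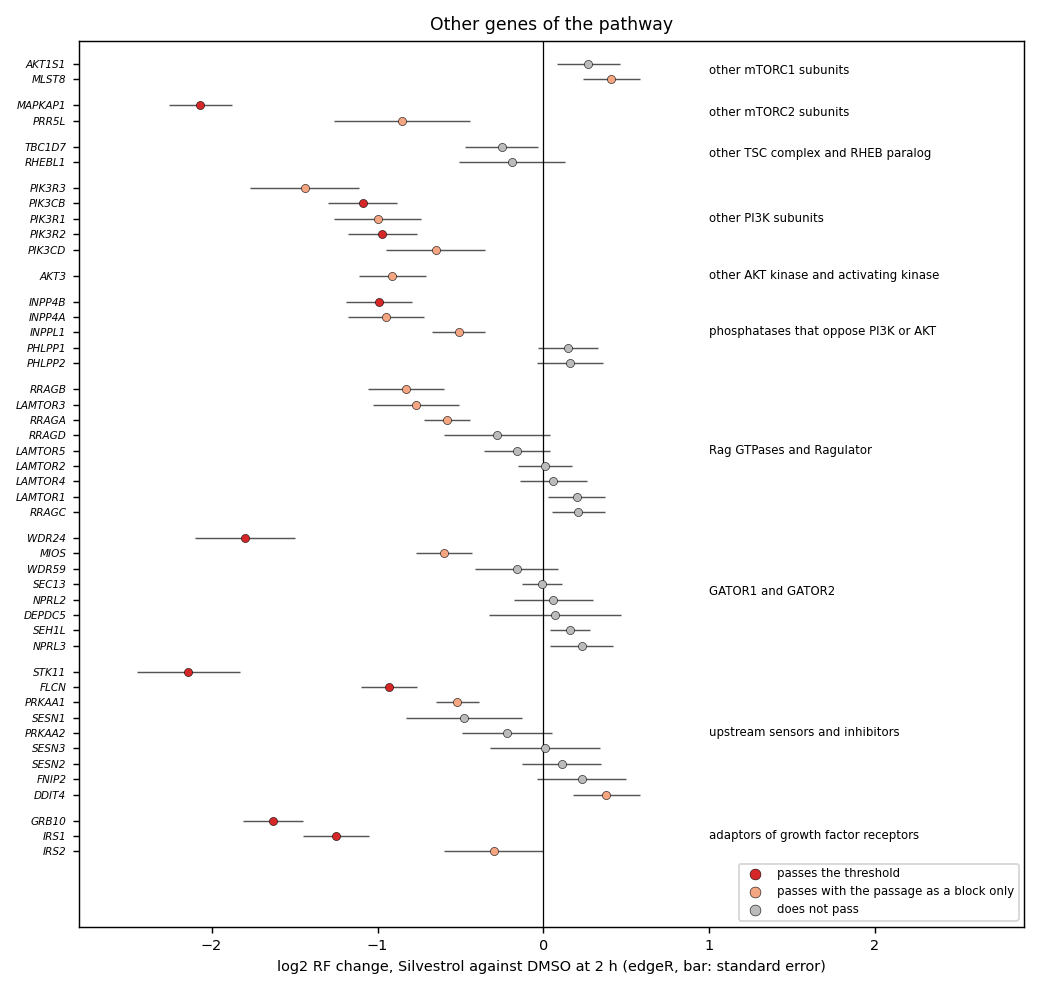
Log2 RF change with Silvestrol at 2 h (edgeR, 2 libraries per treatment) for other genes of the pathway, ordered by role, with bars for the standard error. Red genes pass an adjusted p of 0.05, orange genes pass with the passage as a block only and grey genes pass in neither. The 9 red genes lie between −0.93 and −2.14, and no gene lies beyond 0.41 on the right.

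Set beside the 5′ UTRs described above, the 4 genes that lost RFs had 5′ UTRs of 249 to 792 nucleotides, and the other 5 had 22 to 384, the longest of these being RHEB. Among the 47 other genes of the pathway the 9 that passed as lower had a median 5′ UTR of 555 nucleotides (307 to 1136) and the other 38 a median of 203.5 (55 to 845). The longest, at 1136 and 1082 nucleotides, were those of STK11 and IRS1. Across the 9 genes the rank correlation (Spearman's rho) of 5′ UTR length with the mean log2 RF change of both passages was −0.58, and −0.93 without RHEB, which was left out after its few reads were seen. It was −0.69 over the 47 other genes and −0.58 over the 9028 genes with both values. With the length of the coding sequence rho was 0.25 over the 9 genes and 0.79 without RHEB, −0.20 over the 47 other genes and −0.07 over all genes, so in the 8 genes both lengths went with the RF change. These are descriptions across genes, which share libraries and are not independent replicates.

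**Figure D4:**
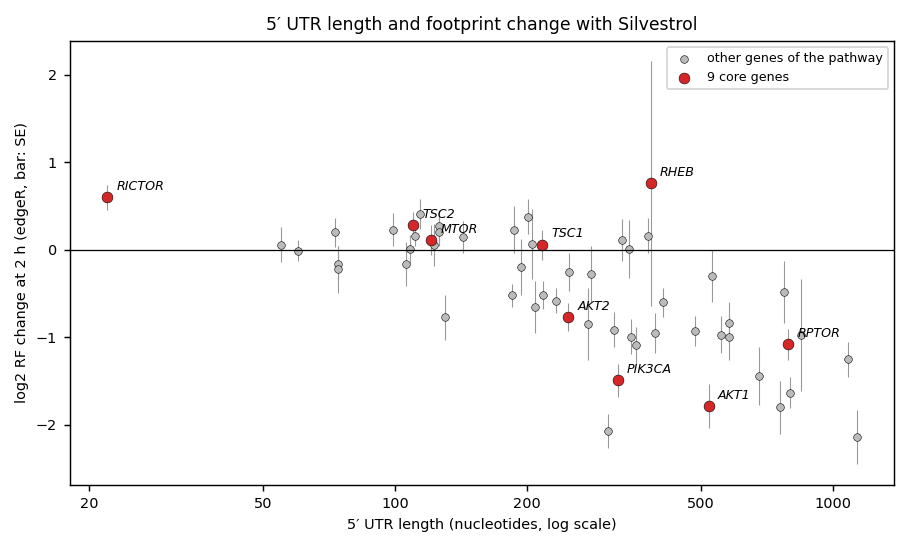
Log2 RF change with Silvestrol at 2 h (edgeR, bars for the standard error) against 5′ UTR length in nucleotides (log scale), red for the 9 core genes and grey for 47 other genes of the pathway. RICTOR, with 22 nucleotides, is the highest of the 9 apart from RHEB, and AKT1 and RPTOR, with 522 and 792, are at −1.78 and −1.08.

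The genes most like MTOR and RICTOR over the 7 RF libraries were looked up among 10519 genes by the root mean square difference of their log2 RPKM after each gene's mean was taken away. NKRF (0.036), TXLNA (0.039) and HSF1 (0.044) were nearest to MTOR, where the median gene differed by 0.32. EIF2AK4 (0.029), XRN1 (0.032) and ATP6V1A (0.044) were nearest to RICTOR, where the median gene differed by 0.39.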

How the data were processed

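RF and RNA libraries were analysed from the deposited table of each drug. For Silvestrol the authors aligned non-rRNA reads to hg19 and to canonical transcripts by Bowtie, allowing 2 mismatches and 16 alignments, and the deposited counts are of reads that mapped uniquely. The authors also deposited RPKM values of each library. For INK128 the authors deposited FPKM values only, and the program that made them is not given in the sources used here. Columns holding the authors' mean RPKM, TE, log2 changes and scores were not used, and 0 columns of per-sample values were unmapped.

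Repeated lines were dropped, and 1 entry per symbol (highest mean RF value) was kept. The 10586 genes tested had RPKM above 0 in the passage 3 RF and mRNA libraries at 2 h, and minimum means of 1 (RF RPKM) and 0.3 (mRNA RPKM), and 7102 genes passed the same minimums in FPKM. The RF counts went into edgeR 4.0.16 under R 4.3.3 (TMM, glmQLFit, glmQLFTest), checked on simulated data, with Benjamini-Hochberg adjustment over all genes. The TE test was the interaction of assay and treatment over 6 libraries. The z-score of the log2 TE change used the mean and SD of all genes. Replicates 1 and 2 are passages 3 and 4, which the labels give as shared by both treatments. The deviation of a passage from the treatment mean correlated between treatments (r = 0.671 over 10586 genes), so passages pair the samples. The main edgeR fit nevertheless left the passage out and so ignores this pairing. The fit with the passage as a block, which has 1 residual degree of freedom at 2 h, is given beside it as the alternative. DESeq2 1.42.0 was an alternative.

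The 5′ UTRs came from GENCODE 44 lifted to GRCh37 and were folded with RNAfold 2.7.2. Python 3.11.15 was used. The 9 genes and the wider list were chosen with earlier results of these data known. Of the wider list the text names the 12 genes with the lowest p in the blocked edgeR fit, those past a z-score threshold, and PIK3R1, PIK3CB, MLST8 and PDPK1, and 1 gene of the list is not reported here. The ratios of AKT1 to AKT2 and of RICTOR to RPTOR were chosen after their values were seen.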

Additional observations from a re-analysis of the deposited data

How the results depend on the processing

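Of the 4 genes called lower in RFs at 2 h (PIK3CA, AKT1, AKT2, RPTOR), all were also called with the passage as a replicate block, with DESeq2, with library totals, with no filter, with an offset for counted length and over all 7 RF libraries. Leaving out 1 library at a time gave 0 to 4 genes lower, with 0 when either Silvestrol library was left out, where no gene of all was called (1634 and 1953 had an unadjusted p under 0.05). The number called higher was 0, but 3 with the block, 1 (RICTOR) with DESeq2 and 2 (RICTOR, TSC2) over all 7 libraries, where TSC1 turned to −0.04. Leaving out a library moved RHEB between −0.50 (without DMSO, passage 3) and 3.67, TSC1 between −0.03 (without Silvestrol, passage 4) and 0.13, and MTOR between −0.05 (without DMSO, passage 4) and 0.31. All-gene counts were 832 lower and 253 higher, 2961 and 2613 with the block, 1003 and 594 with DESeq2 and 2948 and 2468 over all 7 libraries. For TE the block called 3 of the 9 lower and 1 higher. Leaving out a library gave 0 to 1 lower (PIK3CA, without the passage 3 DMSO library) and moved RHEB between −0.76 and 3.37 (−0.04 without Silvestrol, passage 4). All-gene TE counts were 2 lower and 0 higher, 2316 and 2314 with the block, 516 and 372 with DESeq2, 186 and 22 with no filter, 0 and 0 with the length offset, 837 and 547 without the passage 3 DMSO library and 538 and 235 without that of passage 4. At 1 h the block called 4 lower and 1 higher (1518 and 1039 of all genes), and leaving out a library gave 0 to 1 lower (AKT1, without either DMSO library at 2 h, where 192 and 247 of all genes were lower, against 0). For 2 h against 1 h the block called 112 genes lower and 96 higher, and leaving out a library moved AKT2 between −0.17 and 0.03, TSC2 between −0.04 and 0.24 and MTOR between −0.10 and 0.28. Silvestrol z-scores above 1.5 numbered 0 with passage 4 RFs (RHEB −0.49) and 0 with untreated RFs as control, and those below −1.5 numbered 1 (PIK3CA) with untreated RFs (−1.63), with a minimum of 5 (−1.54) and with median and MAD (−1.52), where 674, 489 and 807 of all genes were, against 687. A minimum of 5 left 326 genes above 1.5, against 493. With INK128, 1 z-score (TSC2, −2.08) was below −1.5 with median and MAD, where 870 genes were below −1.5 and 487 above 1.5, against 396 and 124, 736 and 488 with no minimum, and 44 and 12 with a minimum of 5. No mRNA passed a fold of 2 as lower (0). Minus the median of all genes, 0 total RNA values with INK128 passed as lower, against 6, and RPTOR (0.03), TSC2 (0.16), RHEB (0.02) and AKT2 (0.09) turned. The block changed no other call among the 9 genes. Passage 4 had 48 to 605 Silvestrol reads per gene apart from RHEB, and the INK128 values have neither replicates nor counts.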
